A study of Mus musculus with 11 samples.

Results

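Messenger RNA for 65 splicing genes was examined across 11 RNA libraries from a study that purified ribosomes from mouse brain. The genes were every entry of the count files whose symbol belonged to 1 of 5 families, out of 32531 gene entries. The families were the serine/arginine-rich splicing factors (Srsf, 11 genes), the heterogeneous nuclear ribonucleoproteins (Hnrnp, 21), the subunits of splicing factor 3 (Sf3, 9), the proteins of the small nuclear ribonucleoproteins (Snrp, 11) and the pre-mRNA processing factors (Prpf, 13). Snrpn was left out. All 11 files were used, so values could be set side by side by treatment, by the Rep number in the labels and by fraction.

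The mice carried the Glt25d2-TRAP DU9 transgene, in which regulatory DNA of Glt25d2 (now Colgalt2) drives an EGFP-tagged ribosomal protein in pyramidal neurons of cortical layer 5. TRAP, translating ribosome affinity purification, pulls down the tagged ribosomes with anti-EGFP antibodies. All mice had this genotype. Saline self-administration gave 3 immunopurified (IP) libraries, cocaine self-administration 3 and the yoked control 3. One input library (RNA before the pull-down) came from the saline group and 1 unbound library (RNA left after it) from the cocaine group. The labels name cerebral cortex, whereas the extraction text names striatum. The age and sex of the mice, what the yoked mice received and whether a library is 1 animal or a pool are not given in these sources. P-values therefore measure only the spread between libraries.

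Splicing removes introns from nuclear transcripts in the spliceosome, which is built from small nuclear ribonucleoproteins (snRNPs). Each snRNP is a small RNA wrapped in a ring of Sm proteins with proteins of its own. U1 marks the start of an intron, U2 with its SF3 complexes marks the branch point, and the U4/U6.U5 tri-snRNP brings the catalytic core that Prpf proteins assemble and clamp. SR proteins mostly promote and hnRNP proteins often repress the use of nearby exons. In neurons these factors set the isoforms of many channel, receptor and cytoskeletal transcripts. The libraries measured the ribosome-bound or total messenger RNA of the factors, not the proteins and not splicing itself.

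Depth was 20926712 to 53862653 counts in genes per library, and the members held 0.585% (yoked, Rep number 3) to 0.730% (cocaine, Rep number 3) of them. Of the 65 members, 64 passed the count filter among 16417 tested genes. The exception was Hnrnpa1l2, at 0 to 0.11 CPM (counts scaled to a common library size). Each treatment was sequenced in 1 lane of its own (saline IP in lane 6, cocaine IP in lane 2, yoked IP in lane 3), so lane and treatment cannot be told apart. The 3 IP libraries numbered 1 stood apart from the other 6. Reads in no annotated gene made up 6.282% to 7.294% of their files and 10.27% to 15.51% of the other 6. Cocaine number 1 had the largest share of reads placed in several locations of all files, at 47.05%. The 14 layer 5 markers summed to 1646 to 1903 CPM in number 1 and to 957 to 1216 in numbers 2 and 3. Their sums in input and unbound were 1013 and 1008. The 12 astrocyte markers summed to 1021 to 1440 CPM in number 1 and to 2446 to 3044 in numbers 2 and 3. Their sums in input and unbound were 2625 and 2457. For 8 nuclear noncoding RNAs the sums were 225 to 437 and 2480 to 7437 CPM, with input at 5308 and unbound at 15852. For each of these 3 lists the input lay inside the range of the 6 IP libraries numbered 2 and 3. No marker of these lists was at 0 in any library. In bulk RNA, fewer cells of a type and less RNA per cell cannot be told apart.

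All 64 tested members are protein-coding in GENCODE M21 (GRCm38, the assembly of mm10), which gives the gene positions below, and counts are sums over their exons. Per kilobase of exon, the most abundant members in the IP libraries were hnRNP genes. Hnrnpa0, a small RNA-binding protein gene without introns in its reading frame, had 153 CPM per kb on average, and Hnrnpa2b1, which binds RNA bound for dendrites, had 127. Hnrnpul2 (64.3), Hnrnpd (59.4), Hnrnpab (57.9) and Hnrnpdl (57.7) followed. Srsf5 led the SR genes at 41.4 CPM per kb, Prpf8 the Prpf genes at 36.6, Snrpd1 the Snrp genes at 35.8 and Sf3b2 the Sf3 genes at 20.97. The lowest tested members were Snrpc at 0.56 and Srsf4 at 1.14 CPM per kb. Lengths are unions of all annotated exons, which lowers the value of genes with long rare exons. For some members much of the transcript sequence is also annotated in other genes: 91.0% of the 50-base stretches of Hnrnpa3, 67.3% of Hnrnpf, 51.2% of Sf3b4 and 46.4% of Hnrnpa1. The same held for 89.5% of Snrpf, shared with Ccdc38 in more stretches than with any other gene, and for 65.4% of Srsf4, shared with Gm12992, and both of those genes overlap the member on the other strand. Counts of these 6 genes are uncertain, since the files tally reads that fit several places or several genes apart from genes.

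**Figure D1:**
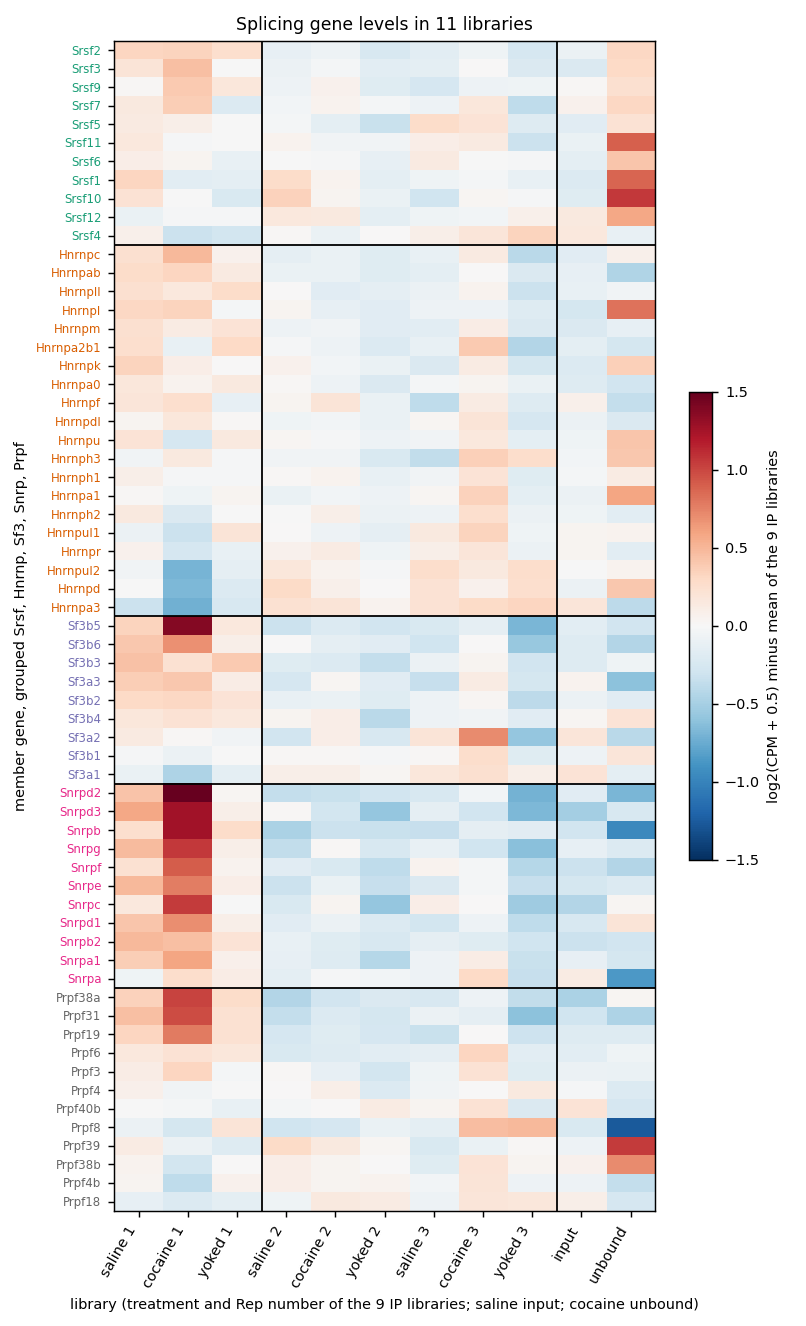
Level of 63 of the 64 tested members in each library, as log2(CPM + 0.5) minus the mean of the 9 IP libraries, with red above and blue below that mean. The 3 columns numbered 1 are red for nearly all Snrp rows, deepest in cocaine number 1, and the unbound column is red for Srsf10, Srsf11 and Srsf1 and blue for Prpf8 and Snrpb.

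Treatment was compared first. No member was called between cocaine and saline IP libraries, between yoked and saline, or between cocaine and yoked. At an adjusted p under 0.05 edgeR called 0 of 64 in each contrast, and 0% of the 16417 tested genes. This fit held no term for the Rep number, so number differences entered its spread and the SEs of these contrasts. A fit with that term is given after the 3 contrasts. DESeq2 also called 0 members in each. At an unadjusted p under 0.05, cocaine against saline held 0 members (1.02% of genes), yoked against saline 0 members (0.402% of genes) and cocaine against yoked 3 members (1.11% of genes). A test for any difference among the 3 treatments called 0 members, with 0 at an unadjusted p under 0.05 (0.481% of genes).

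In cocaine against saline, Snrpa, the U1 protein that binds the second stem-loop of U1 RNA, had the lowest unadjusted p among members. It stood at 36.0, 33.9 and 35.8 CPM in saline numbers 1, 2 and 3 and at 45.3, 37.3 and 46.3 in cocaine. Each cocaine value was above each saline value, yet the log2 difference of 0.30 ± 0.17 (SE) had an edgeR adjusted p of 1.0. Hnrnph3, a G-run binding splicing regulator, was at 6.65, 6.61 and 5.22 CPM in saline and 7.71, 6.66 and 8.98 in cocaine, a log2 difference of 0.35 ± 0.22. Snrpb, which encodes the SmB proteins of the Sm ring, was at 32.2, 19.2 and 20.9 CPM in saline and 64.9, 21.3 and 24.4 in cocaine. Its log2 difference was 0.63 ± 0.43, and -0.07 in the same fit without cocaine number 1. That fit held no term for the Rep number and kept saline number 1, the highest saline value, so the change of sign cannot be read as a treatment difference. Within each Rep number Snrpb was higher in cocaine, by 0.15 in number 2, by 0.22 in number 3 and by most in number 1. Over the Snrp family, 10 of 11 genes lay above 0 with a median of 0.30, against 0.03 for all tested genes. The Snrp median was -0.11 in the same fit without cocaine number 1, which leaves the Rep numbers unbalanced between groups. Within Rep numbers 1, 2 and 3 it was 0.58, 0.08 and 0.19. The medians of the other families were -0.06 (Srsf), 0.01 (Hnrnp), 0.08 (Sf3) and 0.14 (Prpf).

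Most members had somewhat lower values in yoked than in saline libraries. The median over 64 members was -0.11 and 55 of them lay below 0, while the median of all tested genes was 0.00. In each Rep number the yoked library was the lower one for 31 of 64 members (48.4%), and for 14.1% of tested genes. Within Rep numbers 1, 2 and 3 the median of the 64 differences was -0.12, -0.11 and -0.11. The fit holds no term for the Rep number, so leaving out a library unbalances the numbers between groups. Its median was -0.01 without saline number 1 and -0.20 without yoked number 1. Srsf1, the founding SR protein and an alternative splicing factor, had the lowest unadjusted p. It was at 185, 179 and 141 CPM in saline and at 134, 134 and 137 in yoked, a log2 difference of -0.32 ± 0.16. All 3 yoked values lay below the lowest saline value. Srsf5, an SR protein that shuttles between nucleus and cytoplasm, was at 179, 160 and 198 CPM in saline and 163, 129 and 143 in yoked, a difference of -0.29 ± 0.17 with overlapping groups. Prpf8 (chr11:75486816-75509449, plus strand), the large protein at the spliceosome's core, had the opposite sign, at 251, 218 and 242 CPM in saline and 306, 249 and 374 in yoked. Its log2 difference was 0.40 ± 0.24, and yoked number 2 lay inside the saline range. All 3 genes had an edgeR adjusted p of 1.0.

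Most members had somewhat higher values in cocaine than in yoked libraries. Of 64 members, 53 lay above 0 with a median of 0.17, against 0.01 for all tested genes. In 33 members (51.6%) the cocaine library was higher in each Rep number, as it was for 18.1% of tested genes. All 11 Snrp genes lay above 0 with a median of 0.52. That median was 0.11 without cocaine number 1, which leaves the Rep numbers unbalanced between groups. Within Rep numbers 1, 2 and 3 the Snrp medians were 0.86, 0.16 and 0.39. The 3 genes with an unadjusted p under 0.05 had an edgeR adjusted p of 0.97. Snrpc, the U1 protein that helps U1 hold the intron start, was at 7.59, 3.53 and 3.43 CPM in cocaine and 3.40, 2.11 and 2.20 in yoked (log2 difference 0.92 ± 0.37). Srsf7, an SR protein with a zinc knuckle, was at 95.6, 76.5 and 82.7 CPM in cocaine and 63.7, 72.4 and 56.6 in yoked (0.41 ± 0.16). Sf3a2, a U2 subunit, was at 7.90, 8.44 and 13.1 CPM in cocaine and 7.54, 6.56 and 5.05 in yoked (0.62 ± 0.27). For all 3 the groups did not overlap, by 3.43 against 3.40 CPM in Snrpc. These genes were picked by their p, and the share of all tested genes without overlap between treatments was not computed. The same limit holds for Snrpa and Srsf1 in the contrasts above. These contrasts share libraries, so the low yoked values enter both of the contrasts that use that group.

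With the Rep number as a block, edgeR called 0 members in each contrast at an adjusted p under 0.05, and 0% of the 16417 tested genes. At an unadjusted p under 0.05 the block held 8 members for cocaine against saline (12.5%, and 12.3% of genes). It held 5 for yoked against saline (7.81%, and 3% of genes). For cocaine against yoked it held 21 members, all higher in cocaine (32.8%), where 9.45% of genes were higher and 8.86% lower. The lowest adjusted p of a member under the block was 0.130, for Snrpd3 in cocaine against yoked.

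**Figure D2:**
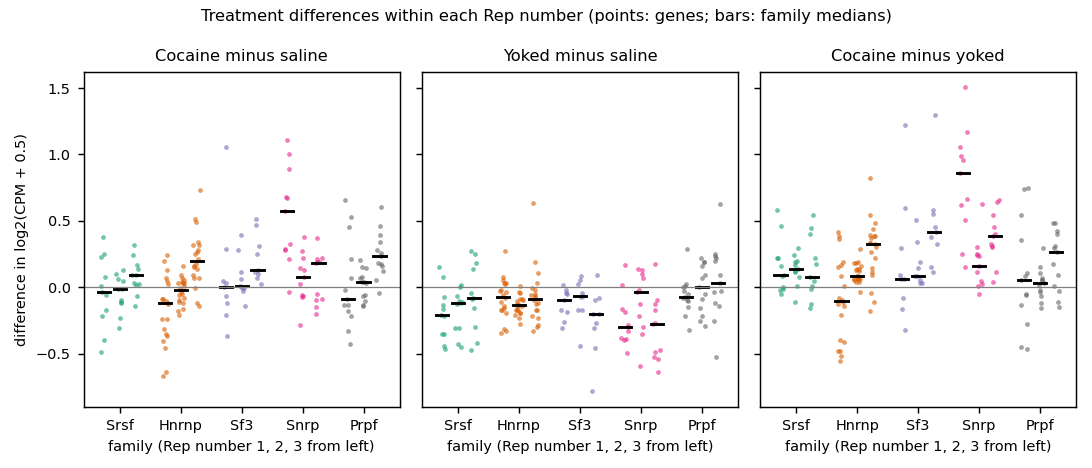
Differences in log2(CPM + 0.5) between treatments within each Rep number, with 1 point per member and a bar at each family median. Points spread around 0 in most columns; the Snrp column of number 1 reaches a median of 0.58 for cocaine minus saline and 0.86 for cocaine minus yoked.

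More members differed by Rep number than by treatment. In IP libraries numbered 1 against the mean of numbers 2 and 3, with treatment as a term, 32 of 64 members differed (50%), close to the 55.3% of all tested genes called. Direction was uneven. By the adjusted p, 27 members were higher in number 1 (42.2%, against 27.6% of genes) and 5 were lower (7.81%, against 27.7% of genes). All 3 number 1 libraries lay above the other 6 for 20 members (31.2%, against 21% of genes) and below them for 6 (9.38%, against 24.9%). Leaving out any 1 library gave 28 to 34 called members. Numbers 3 and 2 did not differ for any member: edgeR called 0, DESeq2 called 0, and 2 had an unadjusted p under 0.05 (1.95% of genes). The labels do not say what the number stands for. The 6 letters of sequence in each label were shared by IP libraries of the same number and differed between numbers. These letters and the number therefore cannot be told apart. The marker levels and the share of reads in no gene, given above, moved with the number. Further marker lists of 12 genes each had medians of -0.76 (oligodendrocyte), -1.04 (microglia), -0.60 (inhibitory interneuron) and 0.52 (endothelial and mural). The part of all these in the member differences was not tested.

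Of the 11 SR genes, 3 were higher in number 1, 0 were lower, and the median was 0.09. Over all tested genes 27.6% were higher and 27.7% lower, so the count of higher SR genes was near that of all genes. Srsf2, which binds exonic enhancers and is needed for many constitutive exons, rose most. It was at 75.2, 75.8 and 71.4 CPM in the saline, cocaine and yoked libraries numbered 1 and at 50.4 to 57.1 in the other 6, a log2 difference of 0.49 ± 0.09 (edgeR adjusted p = 0.000466). Srsf3, the smallest SR protein, rose by 0.34 ± 0.10, and Srsf9, a close relative of Srsf1, by 0.32 ± 0.11. Srsf4 had the lowest difference at -0.26 ± 0.18 (adjusted p = 0.232), with 3.12 to 4.27 CPM in number 1 and 3.74 to 5.20 in the rest. Srsf1, Srsf6 and Srsf10 stood within 0.04 of 0 on the log2 scale.

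Of 20 hnRNP genes, 5 were higher and 3 lower, with a median of 0.11. Over all tested genes 27.6% were higher and 27.7% lower, so the count of higher hnRNP genes was near that of all genes. Hnrnpc, which binds uridine tracts and packages nascent transcripts, rose most. It stood at 154, 183 and 137 CPM in number 1 and at 98.4 to 144 in the other 6, so the groups overlapped (0.42 ± 0.10, adjusted p = 0.00274). Hnrnpab (0.39), Hnrnpll (0.36), Hnrnpl (0.33) and Hnrnpm (0.31) were the others that rose. Hnrnpa3 (chr2:75659261-75669407, plus strand), a relative of Hnrnpa2b1, fell by 0.62 ± 0.12 on the log2 scale (adjusted p = 0.000446): it was at 48.8, 36.8 and 51.5 CPM in number 1 and at 63.3 to 76.7 in the other 6, with no overlap. Hnrnpd, also known as AUF1, a regulator of AU-rich messenger RNAs, was at 426, 268 and 373 CPM against 432 to 522. Hnrnpul2, a relative of the nuclear matrix protein gene Hnrnpu, was at 432, 277 and 408 CPM against 444 to 541. Both fell by 0.42 ± 0.12 with no overlap. The abundant Hnrnpa0 did not pass (0.21 ± 0.10, adjusted p = 0.0897), but did without cocaine number 1 (adjusted p = 0.0197).

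Among the SF3 genes, which encode the U2 proteins that grip the branch point, 5 rose and 1 fell of 9, with a median of 0.43. Over all tested genes 27.6% rose and 27.7% fell. Sf3b5 (chr10:13005343-13009183, plus strand), a small SF3b subunit, was at 42.6, 89.0 and 37.9 CPM in number 1 and at 20.8 to 30.8 in the rest. Its log2 difference of 0.99 ± 0.16 (adjusted p = 9.34e-05) was the largest outside the Snrp family, and cocaine number 1 was more than 2-fold above each other library. Sf3b6, the subunit next to the branch adenosine, rose by 0.61, Sf3b3 by 0.57, Sf3a3 by 0.47 and Sf3b2 by 0.43. Sf3b1, the large scaffold subunit, was steady at 173 to 237 CPM (-0.03 ± 0.11). Sf3a1 was the 1 that fell, by 0.33 ± 0.11, with 42.6, 33.0 and 41.3 CPM in number 1 against 46.5 to 54.1. That call was lost without cocaine number 1 (adjusted p = 0.135).

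The Snrp genes rose together. Of 11, 10 were higher in number 1, 0 were lower, and the median was 0.73, against 0.01 for all tested genes. Over all tested genes 27.6% were higher and 27.7% lower. Snrpd2 (chr7:19149722-19153542, plus strand), an Sm ring subunit, rose most: it was at 25.6, 55.8 and 19.3 CPM in the saline, cocaine and yoked libraries numbered 1 and at 11.4 to 18.4 in the other 6 (1.06 ± 0.18, adjusted p = 0.000218). Snrpd3 (1.02 ± 0.15), Snrpb (0.95 ± 0.15) and Snrpg (0.88 ± 0.16), further parts of the Sm ring, came next. Snrpb (chr2:130171414-130179403, minus strand) was at 32.2, 64.9 and 32.5 CPM against 19.2 to 24.4, with no overlap. Snrpe (0.73), Snrpf (0.76) and Snrpd1 (0.63) complete the ring, so all 7 Sm ring genes measured here rose. Of the proteins bound to single snRNPs, Snrpc of U1 (0.72) and Snrpa1 (0.55) and Snrpb2 (0.60) of U2 rose. Snrpa of U1 was the exception at 0.18 ± 0.12 (adjusted p = 0.199), with 36.0, 45.3 and 40.6 CPM in number 1 and 29.4 to 46.3 in the rest.

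The extent differed between libraries numbered 1. Against the mean of numbers 2 and 3 of the same treatment, the Snrp median was 0.63 in saline, 1.02 in cocaine and 0.47 in yoked, with 11 of 11 genes above 0 in each. The corresponding SR medians were 0.18, 0.05 and 0.02. For 10 of 11 Snrp genes the number 1 library was the highest of its treatment in all 3 treatments (90.9%), as it was for 28.1% of tested genes.

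Of 13 Prpf genes, 4 rose, 1 fell, and the median was -0.06. Over all tested genes 27.6% rose and 27.7% fell, so the count of Prpf genes that rose was near that of all genes. Prpf38a, needed to activate the assembled spliceosome, was at 20.8, 33.2 and 19.7 CPM in number 1 and at 11.8 to 15.3 in the rest (0.87 ± 0.13, adjusted p = 7.47e-05). Prpf31, which ties U4/U6 to U5, was at 58.9, 85.2 and 50.7 CPM against 28.0 to 40.5 (0.86 ± 0.12). Prpf19, the ubiquitin ligase of the complex named after it, was at 159, 218 and 149 CPM against 100.4 to 128 (0.69 ± 0.10). For these 3 genes the groups did not overlap. Prpf6, a U5 bridging protein, rose by 0.29 ± 0.11. Prpf8 did not differ (-0.06 ± 0.12, adjusted p = 0.721), and its sign turned without cocaine number 1 (0.09) or cocaine number 3 (0.02). Its highest values were in cocaine number 3 (368 CPM) and yoked number 3 (374 CPM).

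**Figure D3:**
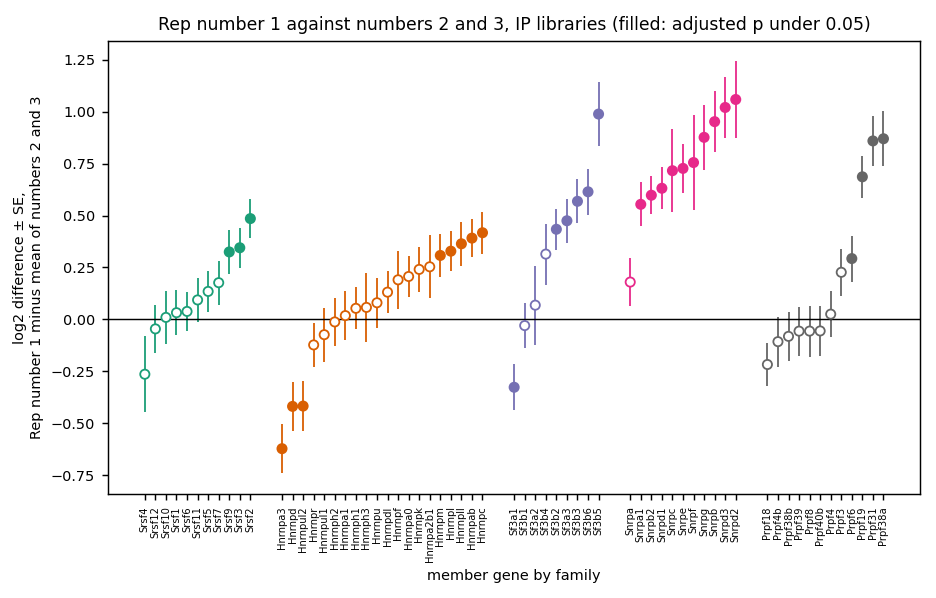
Log2 difference of Rep number 1 over numbers 2 and 3 with its SE for 63 of the 64 tested members, ordered within families, filled where the edgeR adjusted p was under 0.05. The Snrp genes all lie above 0, from 0.18 (Snrpa) to 1.06 (Snrpd2), while the other families each have members on both sides.

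**Figure D4:**
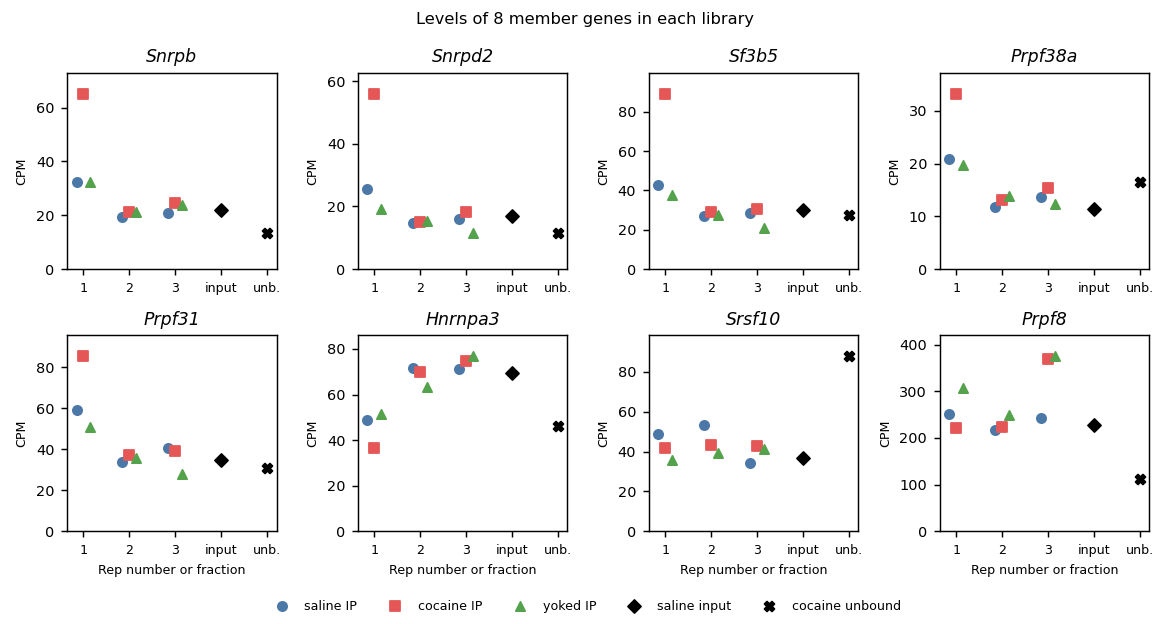
CPM of 8 members in every library, by Rep number for the 3 IP groups and by fraction for the input and unbound libraries. Cocaine number 1 is the highest point for Snrpb, Snrpd2, Sf3b5 and Prpf38a, the 3 number 1 points are the highest IP points for Prpf31 and the lowest for Hnrnpa3, and the unbound point stands apart for Srsf10 and Prpf8.

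Members with shorter transcripts had higher number 1 differences. Taking the annotated transcript with the longest reading frame, the Snrp genes have a median coding length of 378 bases and a median transcript length of 1161 bases, against 1995 and 3522 for Prpf genes. Across the 64 members, log2 transcript length and the number 1 difference had a Pearson r of -0.51 and a Spearman rho of -0.54. Without the Snrp genes r was -0.33 (53 genes), and across 13783 tested genes with a coding transcript it was -0.38. These points share the same 9 libraries and genes are not independent replicates, so no p is given. In transcripts under 1 kb, 4 of 4 members rose with a median of 0.72, and 65.5% of 767 tested genes of that length rose with the same median of 0.72. From 1 to 2 kb the medians were 0.39 for 17 members and 0.43 for 2775 genes. From 2 to 4 kb they were 0.18 for 30 members and 0.10 for 5701 genes. At 4 kb or more they were -0.06 for 13 members and -0.30 for 4540 genes. The member medians under 2 kb thus lay near those of all genes of like length.

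Promoters of the members were searched for letters that several of them share. RefSeq promoter windows on GRCm38.p6, which run from 250 bases before to 50 after a gene's start, were found for 56 members. The letters CCGGAAG, the core bound by ETS family factors, were in the window of 20 of these 56 genes on either strand (35.7%) and in that of 9.93% of 27025 genes. By family they were in 6 of 7 Sf3 genes, 4 of 9 Snrp, 4 of 11 Srsf, 4 of 11 Prpf and 2 of 18 Hnrnp. Members' windows are rich in CpG, with a median of 25 CpG per window against 7 over all windows. Among windows with at least 20 CpG, 36.1% of 61 member windows and 19.6% of 8701 windows held the letters. Of the genes compared by Rep number, 10 of 20 genes with the letters and 13 of 36 without them were called higher in number 1. Called lower were 2 of the 20 with the letters (Sf3a1 and Hnrnpd) and 1 of the 36 without them, against 27.7% of all tested genes. Stretches of 30 bases around the match are shown for 3 Snrp and 3 Sf3 genes, 5′ to 3′ on the strand of the gene, with the motif or its reverse complement in capitals.
Snrpb2 (chr2:143063030-143063059, plus strand): ttggccgccctCTTCCGGcgcggggaagct
Snrpc (chr17:27840037-27840066, plus strand): tagggcagaggCCGGAAGcggaagtcctac
Snrpg (chr6:86371384-86371413, plus strand): tggcgacgcaaCCGGAAGcgtggctctggt
Sf3a3 (chr4:124714760-124714789, plus strand): cccccaagacaCTTCCGGgacacgcggaac
Sf3b6 (chr12:4817527-4817556, plus strand): cggtccgcaatCCGGAAGcgttctggagct
Sf3a1 (chr11:4160324-4160353, plus strand): tgcgaaacggcgagagggcgggaCCGGAAG
The matched letters begin 28, 39, 145, 90, 70 and 7 bases before the RefSeq start of the window, in that order. GENCODE places the gene starts of Snrpb2 (chr2:143063039), Snrpc (chr17:27838150) and Snrpg (chr6:86371304) before these letters. The other strings searched on both strands were GGGGCGGGG (SP1), in 23.3% of 73 member windows and 11.4% of all windows, and CACGTG (E-box), in 15.1% and 7.15%. CCAAT was in 47.9% and 37.4%, and TATAAA in 8.22% and 13.6%. The cAMP response element was in 2.74% and 1.79%, the NRF1 palindrome in 1.37% and 0.971%, and the YY1 motif in 1.37% and 0.633%. A match of letters is a description of the window, not a bound site, and several genes have more than 1 window.

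Other genes of the splicing machinery were read in the same contrast, from lists that hold none of the 65 members. Counts of each list stand against 27.6% of all tested genes higher and 27.7% lower. Of 28 further snRNP proteins, 17 were higher in number 1 and 1 lower, with a median of 0.49. Snrnp25 of the minor spliceosome rose by 1.08 ± 0.23 and Snrnp200, the helicase that unwinds U4 from U6, by 0.91 ± 0.10. Snrnp70, the main U1 protein, fell by 0.28 ± 0.10 (adjusted p = 0.0288), and that call was lost with no count filter (adjusted p = 0.0525). It was also lost without saline number 1, saline number 2, cocaine number 2, yoked number 1 or yoked number 3, each left out in turn (adjusted p = 0.0567 to 0.133). In the SMN complex, which loads Sm rings onto snRNA, 9 of 13 genes were higher and 0 lower, with a median of 0.50. Gemin2, which holds the Sm proteins, rose by 0.88 ± 0.17, while Smn1 stood at 0.08 ± 0.11. Of 33 genes of splice site recognition and activation, 13 were higher and 3 lower. Of 15 exon junction and nonsense-mediated decay genes, 6 were higher, Magoh most (0.74 ± 0.11), and 4 lower.

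Of 29 neuronal and tissue-specific splicing regulators, 1 (Khdrbs3, 0.39 ± 0.10) was higher in number 1 and 13 were lower, with a median of -0.25. All tested genes of 4 kb or more had a median of -0.30, and the lengths of the regulators were not compared. Qk, a regulator of glial splicing that oligodendrocytes and astrocytes express strongly, was at 176, 117 and 189 CPM in number 1 against 487 to 666 in the other 6 (log2 difference -1.83 ± 0.14). Nova1 (-1.27 ± 0.11), Nova2 (-0.78 ± 0.13) and Rbfox1 (-0.38 ± 0.13) also fell. Of 19 paraspeckle and related RNA-binding genes, 4 rose and 8 fell. Ewsr1, an RNA-binding protein that also acts in transcription, fell by 1.43 ± 0.11 on the log2 scale. Of 31 SR-like coactivators and SR protein kinases, 3 rose and 4 fell, with a median of 0.03.

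Fractions were compared last, with 1 library in 1 arm and therefore no test as the main result. Ratios were taken for each IP library after scaling over the 4 libraries concerned. In saline IP over saline input, 0 members were past 2-fold in all 3 libraries in either direction, as were 0.0742% (higher) and 0.0445% (lower) of 13478 genes. All 3 IP libraries lay above the input for 26 members (40.6%, and 18.9% of genes) and below it for 5 (7.81%, and 17.6% of genes). Snrpd3 had the highest mean log2 ratio, at 0.69 ± 0.39 (SD, n = 3 libraries): it was 1.14 in number 1, 0.55 in number 2 and 0.39 in number 3. Snrpc (0.52) and Snrpf (0.45) followed. Snrpa (-0.21 ± 0.05), Prpf40b (-0.20 ± 0.03), a U1-associated protein, and Sf3a2 (-0.17 ± 0.28) were lowest. The Snrp median was 0.69 in number 1 and 0.00 and 0.04 in numbers 2 and 3. The Hnrnp median was above 0 in each library, at 0.19, 0.06 and 0.04, and the Srsf medians were 0.28, 0.13 and -0.08.

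Cocaine IP over cocaine unbound gave wider ratios. Past 2-fold in all 3 libraries were 1 member higher (1.56%, and 0.399% of 13527 genes) and 1 lower (1.56%, and 2.21% of genes). The higher one was Prpf8, at 222, 224 and 368 CPM in cocaine IP and 111 CPM unbound (mean log2 ratio 1.27 ± 0.42, SD). The lower one was Srsf10 (chr4:135855747-135869908, plus strand), an SR protein that represses splicing when dephosphorylated. It was at 41.8, 43.2 and 42.7 CPM in cocaine IP and at 87.8 CPM unbound (-1.02 ± 0.02), and the other IP libraries and the input held 34.1 to 53.5 CPM. Both calls sit close to the 2-fold limit: 2 of 3 ratios of Prpf8 were 1.02, and those of Srsf10 ran from -1.04 to -1.01. An edgeR fit over all 11 libraries called 0 members higher and 0 lower. That fit held 1 unbound library, so its spread came from the IP libraries alone.

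The SR family had the largest share of its genes on the unbound side. All 3 cocaine IP libraries lay below the unbound library for 5 of 11 SR genes and above it for 0, where 25.7% of genes lay below and 31.8% above. The SR medians in numbers 1, 2 and 3 were -0.21, -0.38 and -0.36. Srsf1 (-0.90 ± 0.10) was at 132, 153 and 144 CPM in cocaine IP and 270.0 unbound. Srsf11 (-0.86 ± 0.10), a factor that modulates splice site choice, was at 75.7, 74.0 and 83.7 CPM against 143. Unbound was the highest of all 11 libraries for Srsf1, Srsf6, Srsf10, Srsf11 and Srsf12 (45.5% of SR genes, against 19.3% of tested genes). The input too was below unbound for this family, by a median of 0.43 on the log2 scale (-0.43). Prpf39, a U1-associated protein, had the lowest ratio of all members (-1.05 ± 0.13), at 21.9, 25.8 and 21.8 CPM against 48.6. Among hnRNP genes Hnrnpl was lower in IP (-0.75 ± 0.26).

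The Snrp genes lay mostly on the IP side of the same comparison. All 3 cocaine IP libraries were above unbound for 8 of 11 Snrp genes and below it for 0, and over all 64 members for 26 (40.6%) and 14 (21.9%), against 31.8% and 25.7% of genes. Snrpb (1.28 ± 0.88) and Snrpd2 (1.11 ± 1.03) had high means, carried by cocaine number 1: the ratios of Snrpb were 2.29, 0.67 and 0.88. Snrpa differed less between libraries, with ratios of 1.17, 0.87 and 1.20. The Snrp medians were 1.17, 0.12 and 0.21 in numbers 1, 2 and 3, where those of all genes were 0.03, 0.05 and 0.07. The unbound library had 20926712 counts, the fewest of all, was run in lane 1 and held the nuclear noncoding RNAs at 15852 CPM in sum. Reads that fit several genes made up 7.336% of its file, against 1.555% to 1.907% of the other files. Reads placed in several locations made up 28.26%, the lowest share of all files. The part of these in the ratios was not tested.

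**Figure D5:**
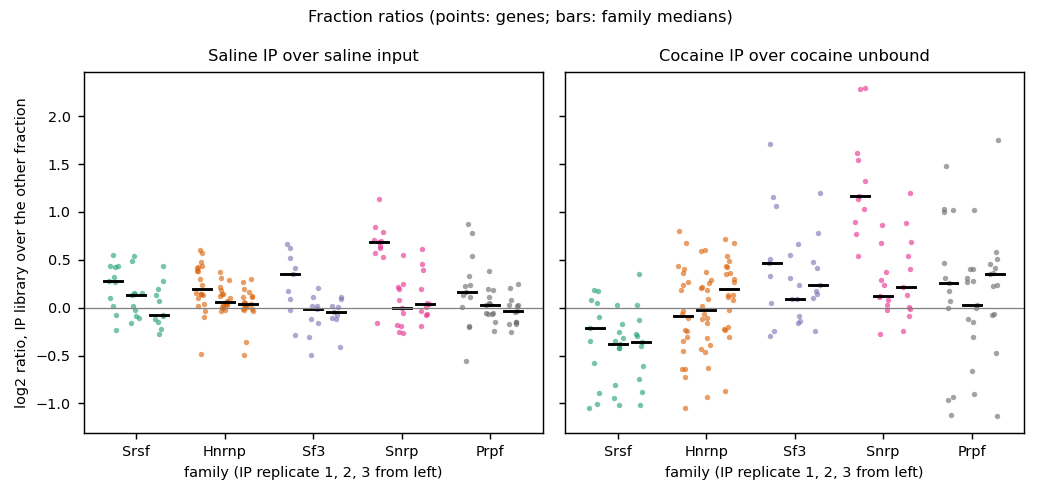
Log2 ratio of each IP library over the saline input (left) or the cocaine unbound library (right), with 1 point per member and a bar at each family median for replicates 1, 2 and 3. In the right panel the 3 Srsf medians lie below 0 (-0.21 to -0.38) and the first Snrp median reaches 1.17.

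One property that the choice of genes did not use is the set of transcripts annotated for them. A transcript marked as a target of nonsense-mediated decay is annotated for 9 of 11 SR genes (81.8%), 31 of 64 members (48.4%) and 27.2% of 13780 tested coding genes. The share was lowest for Sf3 genes, at 1 of 9 (11.1%). SR genes have a median of 7 annotated transcripts, against 5 for tested coding genes. A retained-intron transcript is annotated for 47 of 64 members (73.4%) and 56.6% of tested coding genes. SR genes are known to hold poison exons that trigger this decay. The counts are sums over exons of a gene and do not show which of these transcripts a library held.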

How the data were processed

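Each library has 1 deposited file of whole-number read counts, with 1 entry per gene symbol. Alignment used STAR 2.0.0e on mm10 and counting used HTSeq, per the submitters' processing notes. The version of HTSeq, the annotation and the strand setting were not given in the sources used here. If strand was ignored, overlapping antisense transcripts add to a count. The 6 entries that name no gene were left out. Reads placed in several locations, which HTSeq leaves out of gene counts, made up 28.3% to 47.0% of each file's total.

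The members and gene lists were chosen with earlier results of these data known. The 9 IP libraries were fitted in edgeR 4.0.16 (R 4.3.3) with TMM scaling, filterByExpr, robust quasi-likelihood tests and Benjamini-Hochberg adjustment over 16417 genes at 0.05; log2 differences carry the standard error (SE). Treatment contrasts used 3 group means without the Rep number, so number differences entered their spread. Rep number contrasts used treatment plus number. DESeq2 1.42.0 was an alternative, with other scalings, no count filter, a replicate block, and each library left out. Same-numbered libraries deviated together in all 9 pairs (correlation of deviations from the group means 0.475 to 0.858). Number 2 of 1 treatment and number 3 of another also correlated, at 0.433 to 0.704. Number 1 with number 2 or 3 gave -0.800 to -0.557. The correlations thus set number 1 apart and do not separate number 2 from number 3. The numbers were taken as pairs for the block and for differences within a number. CPM levels are TMM-scaled over 11 libraries. Fraction ratios were scaled over 4 libraries, with a prior count of 2 and a mean of at least 1 CPM. Differences within a number used log2(CPM + 0.5). Transcripts are from GENCODE M21 on GRCm38, where 64 of 65 symbols matched. The fit was tested on simulated data.

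Genes were named by rule: the highest, the lowest and the most abundant per kilobase of each family for Rep number, the 3 lowest p-values of each treatment contrast, the 3 highest and lowest fraction ratios, and the 2 highest and lowest of each pathway list. Others were named after their values were seen. Some genes that enter the counts and medians are not reported here by name or shown as rows of the figures.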

Additional observations from a re-analysis of the deposited data

How the results depend on the processing

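Counts of called members kept their direction and stayed within 1.5 times the main count in every treatment and Rep number contrast under every setting run: 2 other scalings, library sizes without Rn45s, no count filter, DESeq2, the replicate block, no treatment term, all libraries numbered 1 left out, and each library left out. The replicate block changed no call and left every treatment contrast at 0 members. In cocaine IP over unbound, the 1 member past 2-fold higher became 2 without cocaine replicate 2 and 0 in edgeR over all 11 libraries. The 1 lower became 0 with RLE scaling, 0 without cocaine replicate 3 and 0 in edgeR over 11 libraries. The median of yoked minus saline over all members was -0.10 with RLE scaling, -0.094 with upper quartile scaling and -0.10 with DESeq2. Leaving out 1 library at a time moved medians as follows. The treatment fits held no term for the Rep number, so leaving out a library also unbalanced the numbers between groups. Cocaine minus saline ran from -0.020 to 0.20 for Sf3 and from -0.11 to 0.52 for Snrp. Yoked minus saline ran from -0.20 to -0.014 over all members, -0.18 to -0.025 for Hnrnp, -0.054 to 0.062 for Prpf, -0.36 to -0.0094 for Sf3 and -0.48 to 0.022 for Snrp. Cocaine minus yoked ran from 0.11 to 0.79 for Snrp and from 0.071 to 0.23 for Srsf. Number 1 minus numbers 2 and 3 ran from -0.081 to 0.084 for Prpf and from 0.37 to 0.48 for Sf3, and number 3 minus number 2 from -0.032 to 0.16 for Snrp and from -0.030 to 0.035 for Srsf. Cocaine IP over unbound ran from 0.11 to 0.31 over all members, 0.17 to 0.45 for Prpf and -0.37 to -0.066 for Srsf. In the same way Snrpb in cocaine minus saline ran from -0.071 to 0.90, and Prpf8 in the number 1 contrast from -0.15 to 0.091; for these changes the cause was not tested. Named pathway genes whose number 1 call was lost without some single library were Snrnp70, Luc7l2, Mbnl3 and Lsm7, and that of Snrnp70 was also lost with no count filter. Counting limits precision for genes with few counts, such as Snrpf and Snrpc, and counts without molecular identifiers include PCR copies.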
